A study of Mus musculus with 10 samples.

Results

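Regulators of G protein signaling (RGS proteins) were examined as 10 genes of the nucleus accumbens (NAc), the ventral part of the striatum. The genes were Rgs2, Rgs4, Rgs5, Rgs6, Rgs7, Rgs8, Rgs10, Rgs12, Rgs14 and Rgs7bp, taken as the rows of the deposited count table whose Ensembl identifiers carry these symbols on GRCm39. All 10 were found among the 29883 genes of the table, and all 10 held at least 10 counts in every mouse. The tissue came from ethanol-naive male mice of 2 inbred strains, C57BL/6J (B6, n = 5) and DBA/2J (D2, n = 5), killed at 9 weeks of age. There was 1 library per mouse, so each replicate is a separate animal, and no mouse had been treated. Reads of both strains had been aligned to the B6 genome, so D2 reads that carry several D2 alleles are at a disadvantage in mapping. The question of the comparison is which genes differ between the strains at baseline.

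RGS proteins end a G protein signal: the RGS domain binds the active, GTP-bound alpha subunit and speeds the hydrolysis of its GTP, after which the subunit returns to rest. In the striatum, where dopamine, acetylcholine, opioid and adenosine receptors all act through G proteins, they set how long a receptor's signal lasts. The family falls into subfamilies by sequence. The small R4 members (Rgs2, Rgs4, Rgs5 and Rgs8) consist of little beyond the RGS domain, the R7 members (here Rgs6 and Rgs7) work as complexes with the beta subunit Gnb5 and the membrane anchor Rgs7bp, and the R12 members are Rgs10, Rgs12 and Rgs14. Rgs7bp itself has no RGS domain.

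Of the 10 genes, 2 differed between the strains (edgeR quasi-likelihood test, adjusted p under 0.05 over all genes). Rgs12 was lower in D2 and Rgs5 was higher in D2. The share of all genes that passed the same test was 18.3%, made up of 8.5% higher and 9.83% lower in D2, and among genes with a mean of 100 counts or more it was 23.8%. The normalized counts of 1 member, Rgs12, did not overlap between the strains, against 16% of all genes. Both counts are thus near the background, and the RGS genes as a group did not stand out from the other genes. DESeq2 called 2 members as well, the same genes, with 22.1% of the genes it tested. The estimates of 8 of the 10 genes lay below 0, that is, toward lower levels in D2, with a median log2 fold change of -0.14, while 49.3% of all genes lay below 0 with a median of 0.00.

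Levels below are normalized counts, given as CPM (counts scaled to 1000000 per library after TMM normalization), and log2 fold changes are D2 against B6. Between 96977262 and 116776714 reads per library were counted on genes, and the members held between 2679 counts (Rgs6) and 44503 counts (Rgs7bp) in a mouse, so that counting error is small beside the differences between mice. The 10 markers of striatal projection neurons summed to between 3319 and 5110 CPM in every mouse. Markers of cortical projection neurons were present too, and they set B6 replicates 3 and 5 apart from all other mice, with summed levels of 1071 and 1087 against 249, 259 and 334 in the other B6 mice and 389 to 759 in the D2 mice. Each of these 10 cortical markers had a mean of at least 100 counts, and the mean of their sum did not differ between the strains (two-sided exact permutation test, p = 0.952). A test of means does not show that the levels were alike. All D2 mice lay between B6 replicates 3 and 5 and the other B6 mice. Because both mice are B6, the log2 fold change of each gene and the count of each list were also computed without them and with the cortical marker level as a covariate, both chosen after seeing the data. The fit without them does not balance the cortical level, because each remaining B6 mouse lay below every D2 mouse in summed cortical markers. In bulk tissue, fewer cells of a type and less RNA per cell cannot be told apart.

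**Figure D1:**
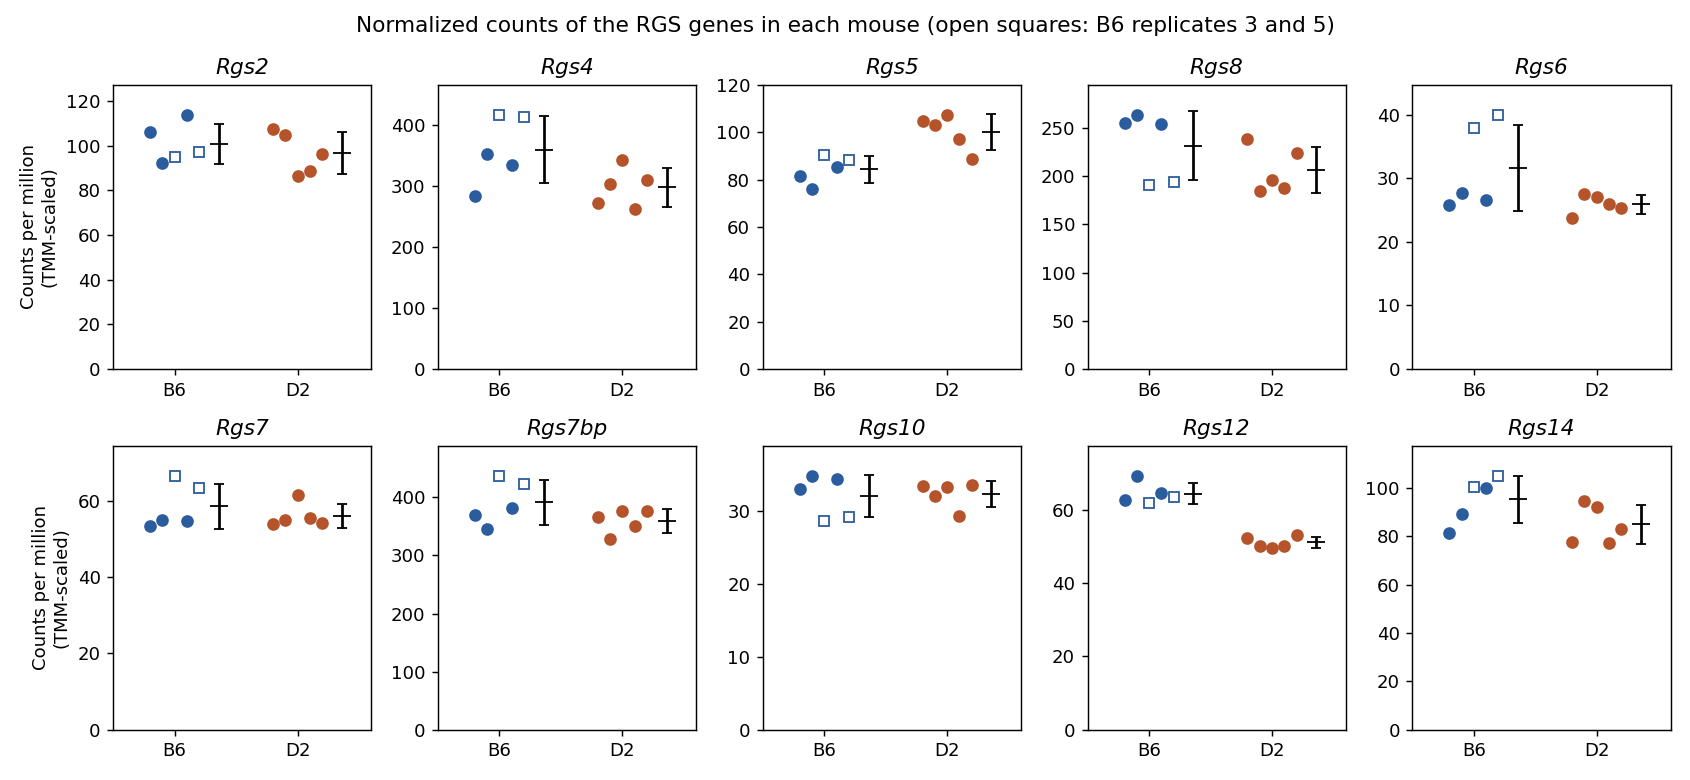
Normalized counts in CPM (vertical axes, from 0) of the 10 RGS genes in each of 5 B6 and 5 D2 mice, with the mean and SD of each strain as a bar and B6 replicates 3 and 5 as open squares. For Rgs12 all 5 D2 mice lie below all 5 B6 mice, for Rgs5 4 of 5 D2 mice lie above the highest B6 mouse, and the other genes overlap.

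Rgs12 encodes the largest of these proteins, a scaffold that joins the RGS domain to PDZ, phosphotyrosine-binding, Ras-binding and GoLoco domains and can hold an alpha subunit in its GDP-bound state. The gene (ENSMUSG00000029101) lies on the plus strand at chr5:35106715-35196988 (GRCm39). The reference lists transcripts from widely spaced starts, and because the deposited value is a sum over the gene, a lower count does not tell which of them is lower. To show what that sum joins, the RefSeq windows around 2 of these starts are printed on the plus strand, 15 bases before and 15 after each start, with the transcribed bases in capitals. The windows lie at chr5:35106777-35106806 and chr5:35156407-35156436, and the starts are 49.63 kb apart.
Rgs12 start 1: cctgcccctcccggaGCCCCGCCCCCGGCC
Rgs12 start 2: ctgtctgcctctcacAGTGCCTACCTGGGT

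The 5 B6 mice had 62.7, 69.3, 62.1, 64.7 and 63.7 normalized counts of Rgs12. The 5 D2 mice had 52.5, 50.2, 49.8, 50.3 and 53.3. The strains did not overlap, and the mice of each strain lay close together, with coefficients of variation of 4.45% in B6 and 3.06% in D2. B6 mice averaged 64.5 ± 2.87 and D2 mice 51.2 ± 1.56 (mean ± SD, n = 5 each). The log2 fold change was -0.33 ± 0.037 (SE; 95% interval -0.41 to -0.25; edgeR adjusted p = 3.3e-05), which puts the D2 level at 0.794 of the B6 level. By p, Rgs12 ranked 906 among all genes. B6 replicates 3 and 5 lay close to the other B6 mice for this gene. Without them the log2 fold change was -0.36 (adjusted p = 5.54e-05), and with the cortical covariate it was -0.32 (adjusted p = 3.7e-06). Rgs12 remained called in each of the 10 fits that left out 1 mouse. An antisense gene, Gm43791, shares 467 bases of exon with Rgs12. It held 0 to 4 counts per mouse, and Rgs12 held 5550 to 7238. Another antisense gene, Gm72388, shares 132 bases of exon with Rgs12 and was not analysed here. Whether the counting used the strand is not stated in the sources used here, so these counts do not show how the shared bases were counted. The part of the overlaps in the Rgs12 values was not tested.

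Rgs14 also carries a GoLoco motif and Ras-binding domains, and is known for limiting synaptic plasticity in the hippocampus. The B6 mice had 81.5, 89.2, 100.5, 100.1 and 104.9 normalized counts, and the D2 mice 77.8, 94.7, 92.1, 77.1 and 83.2. The strains overlapped, with 2 of 5 D2 mice below the lowest B6 mouse. Its log2 fold change was -0.16 ± 0.077 (SE), with a 95% interval of -0.33 to 0.002, and it did not pass the threshold (edgeR adjusted p = 0.176). It passed without B6 replicate 1 (-0.22, adjusted p = 0.0495) and with the cortical covariate (-0.19, adjusted p = 0.0158), while without B6 replicates 3 and 5 it was -0.09 (adjusted p = 0.510).

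Rgs10 is among the shortest of the RGS proteins and is known for its high level in microglia. Its B6 levels were 33.0, 34.9, 28.7, 34.5 and 29.3 normalized counts, and its D2 levels 33.4, 32.1, 33.4, 29.4 and 33.6. Within B6 the lowest values were those of replicates 3 and 5, and all D2 mice lay inside the B6 range. For the strains this gave a log2 fold change of 0.01 ± 0.062 (SE), with a 95% interval of -0.12 to 0.15 (edgeR adjusted p = 0.922), and it turned to -0.08 (adjusted p = 0.343) without B6 replicates 3 and 5. Leaving out either of these alone, or D2 replicate 3, also took it below 0. The 8 microglia markers summed to 390 ± 20.2 (SD) in B6 and 342 ± 25.5 in D2 (n = 5 each, two-sided exact permutation test, p = 0.0159, adjusted over 8 marker lists 0.0635). The part of these markers in the Rgs10 values was not tested.

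Among the R4 genes, only Rgs5 passed the threshold in the fit of all 10 mice. Rgs5 acts on Gi/o and Gq alpha subunits and is best known as a marker of pericytes, the mural cells of brain capillaries. The gene (ENSMUSG00000026678) lies on the plus strand at chr1:169483036-169524887. The B6 mice had 81.5, 76.0, 90.6, 85.5 and 88.5 normalized counts, and the D2 mice 105, 103, 107, 97.2 and 88.7. D2 replicates 1 to 4 lay above every B6 mouse, and D2 replicate 5 lay within the B6 range. B6 mice averaged 84.4 ± 5.81 and D2 mice 100.2 ± 7.42 (mean ± SD, n = 5 each). Rgs5 had a log2 fold change of 0.25 ± 0.059 (SE; 95% interval 0.12 to 0.37; edgeR adjusted p = 0.00986), a 1.19-fold higher level in D2. It was 0.31 (adjusted p = 0.00334) without B6 replicates 3 and 5 and 0.23 (adjusted p = 0.0019) with the cortical covariate, and it remained called whichever single mouse was left out.

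Rgs5 was read beside the other markers of mural cells. Of the 10 markers listed, which do not include Rgs5, 4 fell in D2 and 0 rose (9.83% of all genes fell), and 8 of 10 estimates lay below 0, while the other 2 lay above it. The count of mural markers called lower was 2 without D2 replicate 2, D2 replicate 4 or D2 replicate 5. It was 3 without D2 replicate 3 or any single B6 mouse, and 4 only without D2 replicate 1. Without both B6 replicates 3 and 5 it was 3. Their summed level was 151 ± 4.86 (SD) in B6, from 144 to 157, and 134 ± 6.92 in D2, from 126 to 142. The summed levels did not overlap (n = 5 each, exact permutation test, two-sided; p = 0.0079, which is the lowest value that 5 against 5 mice can give, and 0.0635 after adjustment over 8 marker lists). Set against this sum, Rgs5 stood at 0.502 to 0.599 of the mural marker level in the B6 mice and at 0.701 to 0.774 in the D2 mice, a ratio given as a description. The list is of mural cells and not of pericytes alone, and its sum joins 4 called markers with 6 that were not called. The 8 endothelial markers summed to 230 ± 21.98 (SD) in B6 and 206 ± 21.0 in D2 (n = 5 each, two-sided exact permutation test, p = 0.143). All 8 endothelial estimates lay below 0, with a median log2 fold change of -0.15, against a median of -0.17 for the mural list. Lower levels in D2 were also seen in lists of other cell types. Of the striatal projection neuron markers 6 of 10 fell and 0 rose, with a median log2 fold change of -0.32, and of the oligodendrocyte markers 5 of 8 fell and 0 rose, with a median of -0.35. The oligodendrocyte count was 1 without B6 replicates 3 and 5 and from 2 to 7 when single mice were left out, and the summed level was 5446 ± 913 (SD) in B6 and 4250 ± 658 in D2 (n = 5 each, two-sided exact permutation test, p = 0.0714). Of the microglia markers 2 of 8 fell and 1 rose, and of the astrocyte markers 3 of 8 fell and 1 rose. No change was called by edgeR among the endothelial, cortical and cholinergic interneuron markers, of which 3, 1 and 0 had an unadjusted p under 0.05, and DESeq2 called 2, 0 and 0. Without B6 replicates 3 and 5, 8 of 10 cortical markers were called, 7 of them higher in D2, against 19.2% of all genes called. With the cortical covariate 4 of 8 endothelial markers were called lower and 6 of 6 cholinergic markers higher, against 26.3% of all genes called. The part of any of these cell types in the RGS values was not tested.

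**Figure D2:**
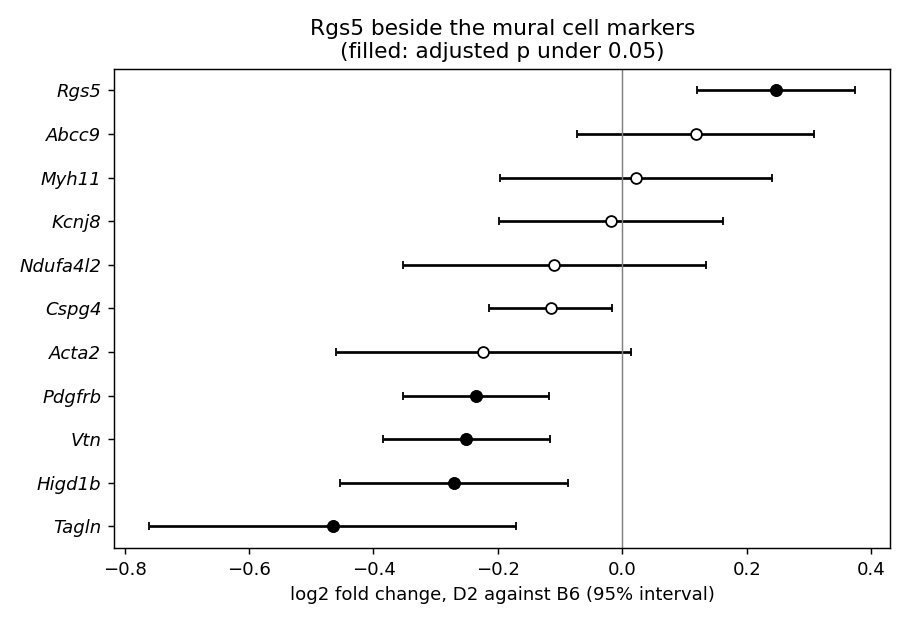
Log2 fold change of D2 against B6 with its 95% interval (horizontal axis) for Rgs5 and for the 10 mural cell markers, from the edgeR fit of all 10 mice, with filled points for an adjusted p under 0.05. Rgs5 lies at 0.25 to the right of 0, and the 4 filled mural markers all lie to the left.

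Rgs4 shortens signals through Gi/o and Gq and is one of the most abundant RGS transcripts of the forebrain. It lies next to Rgs5 in the genome, on the opposite strand at chr1:169569046-169575218, 44.2 kb away. Its B6 levels were 284, 352, 416, 335 and 413 normalized counts, and its D2 levels 272, 304, 342, 262 and 309. The B6 mice were widely spread, with replicates 3 and 5 highest, and 2 of 5 D2 mice lay below the lowest B6 mouse. The log2 fold change was -0.27 ± 0.102 (SE), opposite in sign to that of its neighbor, with a 95% interval of -0.49 to -0.05, and it did not pass the threshold after adjustment (edgeR adjusted p = 0.0895). The outcome depended on which B6 mice were included. It was -0.12 (adjusted p = 0.392) without B6 replicates 3 and 5, -0.35 (adjusted p = 0.0154) without B6 replicate 1, and -0.31 (adjusted p = 0.00151) with the cortical covariate.

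Rgs8 favors Gi/o alpha subunits and is known from Purkinje cells and from the striatum. The B6 mice had 255, 263, 191, 255 and 194 normalized counts, and the D2 mice 238, 184, 196, 188 and 224. Here B6 replicates 3 and 5 were the low ones, and the other 3 B6 mice lay above every D2 mouse. Rgs8 had a log2 fold change of -0.17 ± 0.104 (SE), with a 95% interval of -0.40 to 0.06 (edgeR adjusted p = 0.326). Without B6 replicates 3 and 5 it was -0.32 (adjusted p = 0.00899), past the threshold, whereas with the cortical covariate it was -0.10 (adjusted p = 0.0837). The summed striatal markers of B6 replicates 3 and 5 were 3873 and 3851, below the 4442, 4792 and 5110 of the other B6 mice, and the strain means were 4414 ± 556 (SD) in B6 and 3569 ± 285 in D2 (n = 5 each, two-sided exact permutation test, p = 0.0238, adjusted over 8 lists 0.0635). The part of these markers in the Rgs8 values was not tested.

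Rgs2 differs from the other R4 members in its preference for Gq, and its gene is switched on quickly by neuronal activity. Its levels were 106, 92.1, 94.8, 114 and 97.0 normalized counts in B6 and 108, 105, 86.4, 88.4 and 96.5 in D2. The strains overlapped over most of their range, and B6 replicates 3 and 5 lay among the other B6 mice. Its log2 fold change was -0.06 ± 0.073 (SE), and its 95% interval of -0.22 to 0.10 bounds the difference (edgeR adjusted p = 0.675).

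Rgs6, Rgs7 and Rgs7bp did not pass the threshold in the fit of all mice. Rgs6 and Rgs7 encode proteins that are stable only when bound to Gnb5 and that act on Gi/o alpha subunits. The levels of Rgs6 were 25.9, 27.7, 38.0, 26.6 and 39.9 normalized counts in B6 and 23.8, 27.6, 27.1, 25.9 and 25.3 in D2. Replicates 3 and 5 stood apart from the other B6 mice, which lay at the level of the D2 mice, and the coefficient of variation was 21.4% in B6 against 5.82% in D2. Rgs6 had a log2 fold change of -0.29 ± 0.117 (SE), with a 95% interval of -0.54 to -0.03 (edgeR adjusted p = 0.122). Without B6 replicates 3 and 5 it was -0.04 (adjusted p = 0.643), and with the cortical covariate it was -0.33 (adjusted p = 1.04e-05), so that the 2 ways of treating these mice gave different calls.

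For Rgs7 the B6 mice had 53.4, 55.0, 66.4, 54.7 and 63.2 normalized counts, and the D2 mice 53.9, 55.1, 61.5, 55.6 and 54.1. The values fell into a narrow band, with B6 replicates 3 and 5 and D2 replicate 3 above it. The log2 fold change was -0.06 ± 0.064 (SE), with a 95% interval of -0.20 to 0.08 (edgeR adjusted p = 0.583), and it was 0.04 (adjusted p = 0.605) without B6 replicates 3 and 5.

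Rgs7bp, the palmitoylated anchor that brings R7 complexes to the plasma membrane, had 369, 346, 437, 382 and 424 normalized counts in B6 and 367, 328, 377, 350 and 376 in D2. Replicates 3 and 5 were again the highest B6 mice, and 1 of 5 D2 mice lay below the B6 range. The log2 fold change was -0.12 ± 0.065 (SE), with a 95% interval of -0.26 to 0.02 (edgeR adjusted p = 0.242). It was -0.02 (adjusted p = 0.815) without B6 replicates 3 and 5 and -0.14 (adjusted p = 0.0337) with the cortical covariate.

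**Figure D3:**
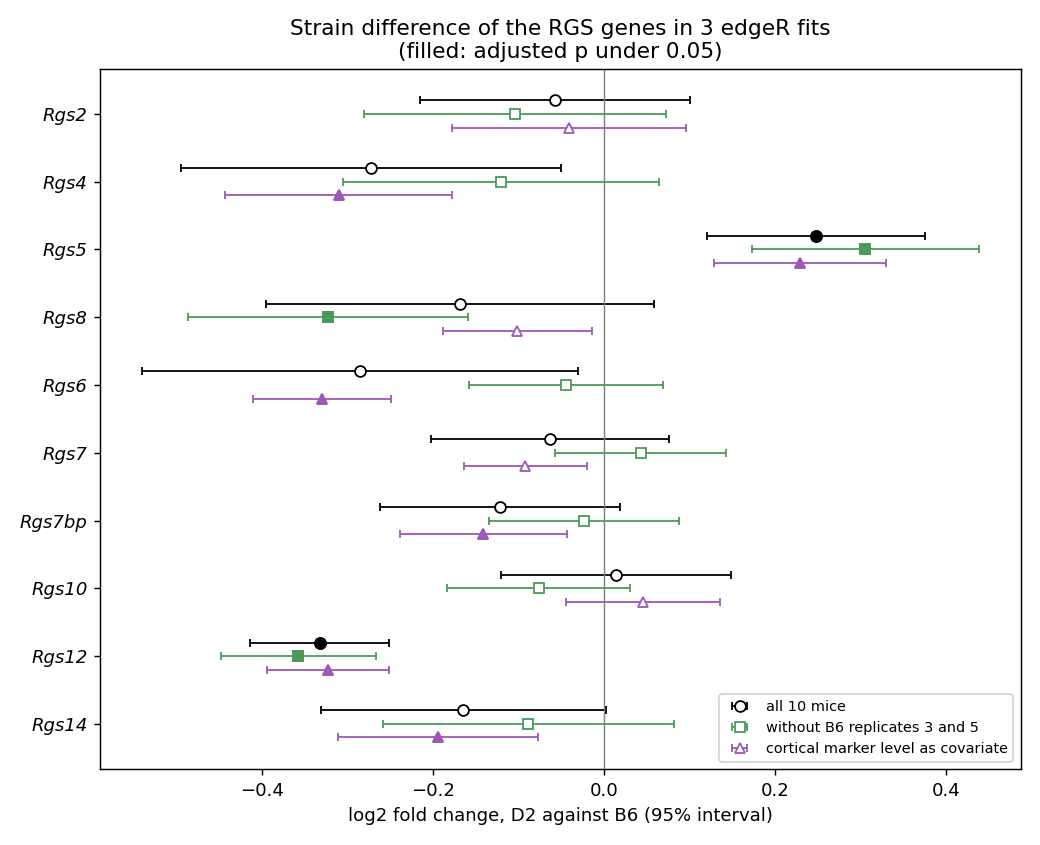
Log2 fold change of D2 against B6 with its 95% interval (horizontal axis) for each RGS gene in 3 edgeR fits, of all 10 mice, without B6 replicates 3 and 5, and with the cortical marker level as a covariate; filled symbols have an adjusted p under 0.05. Rgs5 and Rgs12 are filled in all 3 fits, and Rgs4, Rgs6, Rgs8, Rgs14 and Rgs7bp in 1 fit each.

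The place of B6 replicates 3 and 5 was shared by most of the genes. Both lay above the other 3 B6 mice for 6 genes (Rgs4, Rgs5, Rgs6, Rgs7, Rgs14 and Rgs7bp), both lay below them for 2 genes (Rgs8 and Rgs10), and neither held for Rgs2 and Rgs12. The coefficient of variation was larger in B6 than in D2 for 8 of the 10 genes. Without these 2 mice 3 members were called, Rgs5, Rgs8 and Rgs12, against 19.2% of all genes. With the cortical covariate 6 members were called, Rgs4, Rgs5, Rgs6, Rgs12, Rgs14 and Rgs7bp, against 26.3% of all genes. Rgs5 and Rgs12 were thus called in both of these fits, and the calls of 5 other genes (Rgs4, Rgs6, Rgs8, Rgs14 and Rgs7bp) changed with the way these mice were treated. The part of cortical tissue in these values was not tested beyond these fits. The fit without these 2 mice leaves every B6 mouse below every D2 mouse in summed cortical markers.

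**Figure D4:**
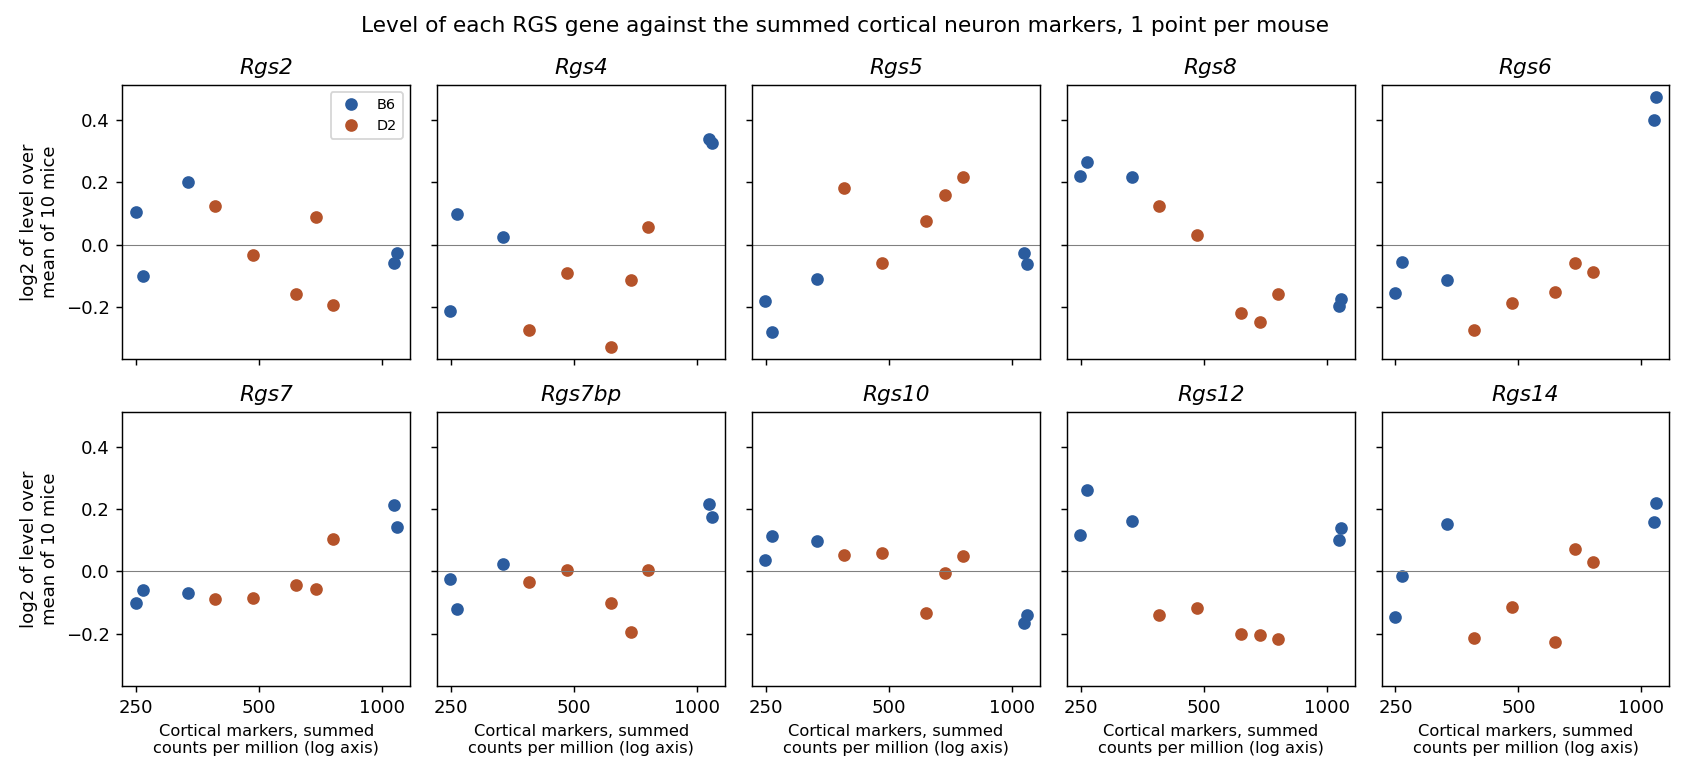
Log2 of the normalized level of each RGS gene over its mean of the 10 mice (vertical axes) against the summed level of 10 cortical projection neuron markers in CPM (horizontal axes, log scale), 1 point per mouse. The 2 B6 mice at 1071 and 1087 are the highest for Rgs4, Rgs6, Rgs7, Rgs14 and Rgs7bp and are among the low ones for Rgs8 and Rgs10. For Rgs12 all B6 mice lie above all D2 mice. All D2 mice lie between these 2 B6 mice and the other B6 mice on the horizontal axis, so no stretch of it holds both strains.

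Levels of different genes can be compared only per length, and were therefore expressed as CPM per kb of union exon. On this scale Rgs4 was highest, at 116 ± 17.9 (SD, n = 5) in B6 and 96.0 ± 10.3 in D2, and made up 41.2% of the summed level of the 10 genes. Rgs7bp followed with 49.2 in B6 and 45.2 in D2, then Rgs2 with 27.8 and 26.7, and Rgs8 with 20.8 and 18.5. Rgs6 was lowest, at 3.11 in B6 and 2.55 in D2.
The genes between them were close together. Rgs5 had 13.7 in B6 and 16.3 in D2, Rgs10 had 14.4 and 14.5, Rgs14 had 10.9 and 9.71, Rgs7 had 7.99 and 7.64, and Rgs12 had 7.53 and 5.98. Neighbors in this order whose mice overlapped were Rgs10 with Rgs5 and Rgs7 with Rgs12 in B6, and Rgs8 with Rgs5 and Rgs5 with Rgs10 in D2. With the length of the canonical transcript in place of the union of exons, Rgs10 moved from place 6 to place 4 and Rgs14 from place 7 to place 8, while the 3 highest genes and the 2 lowest kept their places.

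**Figure D5:**
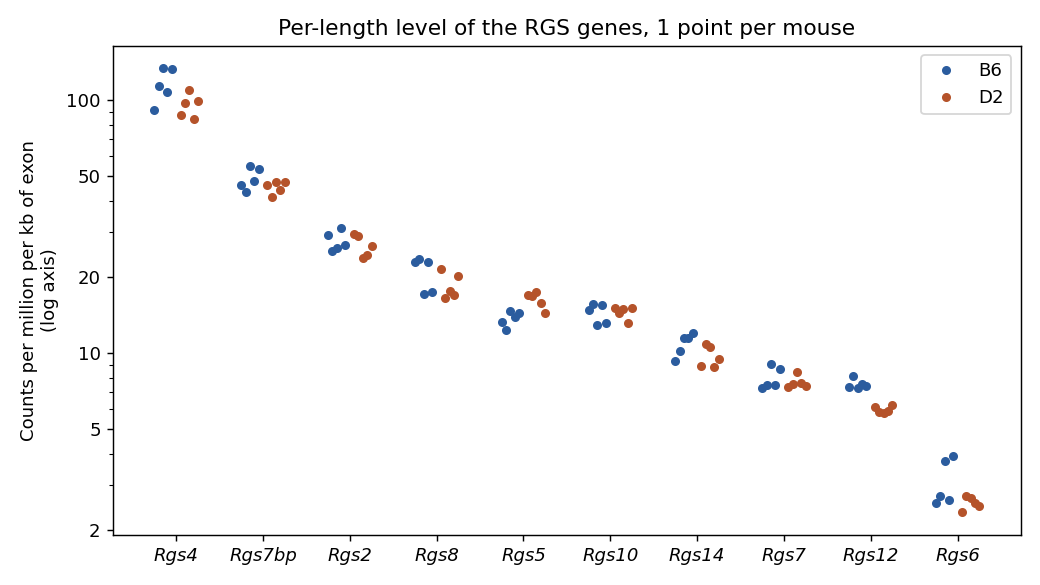
Level of each RGS gene in CPM per kb of exon (vertical axis, log scale), 1 point per mouse, with genes ordered by their mean over the strains. Rgs4 stands above all others at 116 in B6 and 96.0 in D2, and Rgs6 lies lowest at 3.11 and 2.55.

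Of the other genes of the RGS family, 3 of 13 passed the test (18.3% of all genes did), all lower in D2. These were Rgs9, the R7 member typical of striatal neurons, with a mean of 506 ± 48.0 (SD, n = 5) normalized counts in B6 and 425 ± 23.7 in D2 (log2 fold change -0.25 ± 0.063 SE, edgeR adjusted p = 0.0142), Rgs20, an RZ member that prefers Gz (-0.28 ± 0.061 SE, adjusted p = 0.0063), and Rgsl1, an RGS-like gene of low level here (3.57 and 1.58 normalized counts; -1.17 ± 0.105 SE, adjusted p = 4.2e-06). All 3 were called in each of the 10 fits without 1 mouse. Rgs9 is itself on the list of striatal projection neuron markers, whose summed level was 4414 in B6 and 3569 in D2, and the part of these markers in the Rgs9 value was not tested. Genes of this list that were higher in D2 passed in other fits. Without B6 replicates 3 and 5 there were 2 of 13, where 2893 of all 29883 genes were called higher, and the median of the list moved from -0.11 to 0.14. There was 1 each with DESeq2, total counts as library size, the replicate number as a block and the cortical covariate.
Of the partners of the R7 proteins, 1 of 3 passed, against 18.3% of all genes. Gpr158, a receptor that holds R7 complexes at the membrane, was lower in D2 (252.4 ± 10.5 against 215 ± 13.6 SD, n = 5 each; log2 fold change -0.23 ± 0.047 SE, edgeR adjusted p = 0.0037). The obligate partner Gnb5 had 197 ± 13.5 (SD) normalized counts in B6 and 205 ± 14.1 in D2, with a log2 fold change of 0.06 and a 95% interval of -0.06 to 0.18 (adjusted p = 0.539).

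Of the G protein alpha subunits, listed whether or not the RGS members act on them, 2 of 15 passed, against 18.3% of all genes. Gnao1, the Go alpha subunit, was lower in D2 (877 ± 59.9 against 763 ± 11.9 SD, n = 5 each; log2 fold change -0.20 ± 0.046 SE, edgeR adjusted p = 0.0083) and was called in each fit without 1 mouse. Gna13 was higher (0.14 ± 0.043 SE, adjusted p = 0.0361), but was called in only 4 of those 10 fits. The count of alpha subunits was 1 without B6 replicate 3, D2 replicate 2 or D2 replicate 3. Of the 5 proteins that carry GoLoco motifs but no RGS domain, 0 passed with edgeR and 0 passed with DESeq2. In the edgeR fit 0 had an unadjusted p under 0.05. With the cortical covariate 1 passed, against 26.3% of all genes. Rgs12 and Rgs14, the GoLoco proteins with an RGS domain, are described above.

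The members are spread over 5 chromosomes, with 5 genes on chromosome 1 (Rgs2, Rgs4, Rgs5, Rgs7 and Rgs8) and 2 on chromosome 13 (Rgs14 and Rgs7bp), and Rgs6, Rgs10 and Rgs12 alone on theirs. Of the 18 nearest genes on either side that are not themselves members, 4 were called (18.3% of all genes were), 1 higher and 3 lower in D2. Of the 5 genes on chromosome 1, 1 was called (Rgs5), and of the 2 on chromosome 13, 0 were called by edgeR or DESeq2, at unadjusted p of 0.0525 for Rgs14 and 0.084 for Rgs7bp.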

How the data were processed

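NAc RNA of 5 B6 and 5 D2 mice was sequenced from poly-A libraries. The authors used fastp for trimming, STAR 2.7.10b for alignment of every library to GRCm39, SAMtools 1.6 for sorting and featureCounts for counts per gene; the strand setting was not given in the sources used here. The deposited values are these raw counts, and the lowest median count of a gene was 0.5, since genes with a median of 0 had been removed. The deposited summary columns were not used.

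Symbols were matched for 29519 of the 29883 genes in the GENCODE annotation of the same build. Counts were fitted with edgeR 4.0.16 in R 4.3.3 (TMM, quasi-likelihood F test, two-sided, strain as the factor), with p adjusted by Benjamini and Hochberg's method across the table at a threshold of 0.05. The SE was derived from the log2 fold change and its F statistic, and intervals are 95%. Depth was 96977262 to 116776714 counts per library. Summed marker levels were compared by exact permutation of the mice (252 ways to choose 5 of 10). Levels per length used the union of exons. Starts were taken from RefSeq windows matched to GRCm39.

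Alternatives were DESeq2 1.42.0, its size factors, total counts, upper-quartile normalization, filters on low counts, the replicate number as a block, a threshold of 0.01 and each mouse left out. The fit without B6 replicates 3 and 5 and the fit with the cortical marker level as a covariate were chosen after seeing the data. B6 replicates 3 and 5, which the labels give as separate mice, were the most alike of the pairs within a strain, with a mean chi-square of 4.89 per gene between their counts against 17.5 to 119 in the other pairs, and were counted as 2 mice. The fit was tested on simulated data.

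The members and all gene lists were chosen with earlier results of these data known. Named beside the members were the called genes of the RGS, R7 partner, alpha subunit and GoLoco lists, at most 4 a list by size of change, and Rgs9, Gnb5 and Gpr158 in any case. Marker lists were given by their count of called genes or their summed level, not by gene. Rgs21 and Gnat3 were not analysed here. Tables and figures were made in Python 3.11.15 (pandas 2.3.3, scipy 1.17.1, matplotlib 3.10.9).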

Additional observations from a re-analysis of the deposited data

Results flagged for a closer look

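Rgs7 in D2 replicate 3 stood apart from the rest of its strain, at 61.5 normalized counts (CPM) against 53.9 to 55.6 in the other 4 D2 mice. Its gap to the nearest mouse was 0.778 of the range of the group, above Dixon's 95% critical value of 0.71 for 5 samples. In all, 36 groups of 5 mice were tested in this way, and chance passes about 1 in 20. The same mouse had the highest cortical marker sum of the D2 mice (759). The part of these markers in the Rgs7 value was not tested.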

How the results depend on the processing

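Rgs5 and Rgs12 kept their direction and their call under all alternatives run. When single mice were left out, the log2 fold change ranged from 0.21 to 0.29 for Rgs5, -0.35 to -0.31 for Rgs12, -0.35 to -0.22 for Rgs4, -0.35 to -0.19 for Rgs6, -0.22 to -0.13 for Rgs14, -0.24 to -0.12 for Rgs8, -0.16 to -0.08 for Rgs7bp, -0.10 to -0.01 for Rgs2, -0.11 to -0.02 for Rgs7 and -0.029 to 0.047 for Rgs10. The members called ranged from 2 to 4 (4 without B6 replicate 1, with Rgs4 and Rgs14 added), all genes from 4636 to 5676, other RGS genes from 3 to 4, alpha subunits from 1 to 3, and members without overlap from 1 to 2. Rgs10 turned to -0.029 without B6 replicate 3, -0.024 without B6 replicate 5 and -0.0043 without D2 replicate 3.

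Without both B6 replicates 3 and 5, Rgs7 turned to 0.042 and Rgs10 to -0.077, and Rgs8 passed at -0.32. Of 13 other RGS genes 5 were called, 2 of them higher in D2, against 19.2% of all genes called. With the cortical covariate Rgs4 (-0.31), Rgs6 (-0.33), Rgs14 (-0.19) and Rgs7bp (-0.14) passed, giving 6 of 10 members. In that fit 5 of 13 other RGS genes, 4 of 15 alpha subunits and 1 of 5 GoLoco proteins passed, against 26.3% of all genes. At an adjusted p of 0.01, 3415 genes were called. With total counts as library size 2 members did not overlap, the median of all genes shifted by 0.03 on the log2 scale, and 45.0% of called genes were lower in D2, against 53.6% with TMM. The cause of these changes was not tested.

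With the replicate number as a block, Rgs4 passed (-0.26, adjusted p = 0.0088), 3 members and 4731 genes were called, and 2 of the 10 mural markers. Same-numbered mice had correlations of deviations between -0.42 and 0.37. Differently numbered mice were not compared in this way, so these values do not settle whether the numbers pair the mice. The limits are 5 mice a strain, counts that sum all transcripts of a gene, and alignment of both strains to the B6 genome, whose part in the lower D2 counts was not tested.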
